A study of Mus musculus with 6 samples.

Results

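The IFI200 genes and Aim2 form the mouse PYHIN family, a cluster on chromosome 1 that is large and varied in mice. Their proteins usually carry an N-terminal pyrin domain, which binds other pyrin domains, and 1 or more HIN domains, which bind DNA. AIM2 senses DNA in the cytosol and assembles an inflammasome through the adaptor ASC and caspase-1, while several other members act in the nucleus, in DNA sensing and in growth control. Many of these genes are induced by interferons in macrophages. The 8 genes described here were taken by name (Aim2, Ifi203, Ifi204, Ifi207, Ifi209, Ifi211, Ifi213 and Mndal), and all 8 were found among the 54532 genes counted.

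RNA was sequenced from RAW264.7 cells, a mouse macrophage line labelled wild type, in 2 groups of 3 libraries (A, B and C). The first group had been cocultured for 48 h with TTJ cells, a Tsc2-null line from an angiomyolipoma of a mouse model of tuberous sclerosis, and the other had been grown alone, with both lines kept in DMEM with serum. Both were FACS-sorted before RNA extraction, and nothing in the labels says whether the replicates were separate cultures, so p-values measure the spread between these libraries. Total counts were 14329487 to 16976782 per cocultured library and 14621832 to 17358280 per library grown alone.

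The 12 macrophage markers checked were all expressed, with a summed level of 13539 to 13876 CPM (the count divided by the library total and scaled to a common base) in coculture and 13041 to 13128 CPM alone. Of 15 renal and simple epithelial markers, 9 could be tested and all 9 were higher in coculture, with a summed level of 448 to 519 CPM there and 0 to 0.115 CPM alone, although Epcam, Cldn7 and Lhx1 had no count in coculture. Of 15 mesenchymal and smooth muscle markers, 4 could be tested and 3 were higher (59.7 to 64.5 CPM summed in coculture, 1.90 to 2.13 CPM alone), with Col3a1, Pdgfra and Thy1 at 0 in coculture. T, B and dendritic cell markers summed to at most 3.22 CPM in coculture and at most 2.70 CPM alone, with Cd3e, Cd8a, Ms4a1, Flt3, Siglech, Ncr1 and Klrb1c among those at 0 in coculture. The epithelial and mesenchymal markers thus moved with the groups, and the part of RNA from such cells in the results below was not tested. In bulk RNA of this kind, a change in the number of cells of a type and a change in RNA per cell cannot be told apart.

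The genes arose by duplication, and the start of the coding sequence shows how close some of them are. The first 90 coding bases are given for 6 members whose starts line up without gaps, to show the range from identical to diverged, from the GENCODE M21 transcripts (GRCm38), with capitals at bases that differ from Ifi204. For Mndal, 87 bases are given, and capitals mark bases that differ from Ifi203 once its first codon is left out.
Ifi204: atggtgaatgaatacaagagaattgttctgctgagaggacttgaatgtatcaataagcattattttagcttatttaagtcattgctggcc
Ifi211: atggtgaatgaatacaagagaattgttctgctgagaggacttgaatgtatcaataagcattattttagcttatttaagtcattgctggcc
Ifi207: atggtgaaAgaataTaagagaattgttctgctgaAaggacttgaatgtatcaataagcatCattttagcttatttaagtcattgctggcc
Ifi209: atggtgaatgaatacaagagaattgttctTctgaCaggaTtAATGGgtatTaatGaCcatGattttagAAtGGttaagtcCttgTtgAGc
Ifi203: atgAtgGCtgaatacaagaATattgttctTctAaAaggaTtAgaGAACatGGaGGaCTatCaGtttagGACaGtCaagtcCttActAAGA
Mndal: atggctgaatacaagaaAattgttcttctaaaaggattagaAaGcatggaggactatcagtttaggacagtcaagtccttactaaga
These lie at chr1:173761774-173761863 (Ifi204), chr1:173907772-173907861 (Ifi211), chr1:173736362-173736451 (Ifi207), chr1:173937917-173938006 (Ifi203) and chr1:173875751-173875837 (Mndal) on the minus strand, and at chr1:173637306-173637395 (Ifi209) on the plus strand. Ifi204 and Ifi211 had 0 differences over these 90 bases, Ifi207 had 4, Ifi209 had 20 and Ifi203 had 33, and Mndal differed from Ifi203 at 3. Aim2, compared without gaps over the same stretch, differed from Ifi204 at 44 bases.

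The sequence just before the transcription start was compared in the same way. RefSeq promoters (GRCm38.p6, 250 bases before to 50 after a start, 300 bases in all) matched 7 of the 8 members, all but Ifi204. They were searched on both strands for a pair of GAAA blocks with any 2 bases between them, the core of the interferon-stimulated response element (ISRE), which binds interferon regulatory factors, and for TTCNNNGAA, the gamma-interferon activated sequence (GAS). The letters of the ISRE core were present in 5 of the 7 members, Ifi213, Ifi207, Mndal, Ifi211 and Ifi203, and in 3.44% of all 32851 promoters of that length. A member was counted if any of its windows matched, whereas the 3.44% is per window. Windows of duplicated genes are also not separate occurrences. The GAS letters were in 0 of the 7 members and in 8.3% of all promoters. The windows below hold the match in capitals, 60 bases each, and Ifi208, a neighbouring PYHIN gene, is given beside Ifi213.
Ifi213: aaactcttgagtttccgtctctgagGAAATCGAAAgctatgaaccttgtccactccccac
Ifi208: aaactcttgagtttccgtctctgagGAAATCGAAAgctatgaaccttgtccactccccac
Ifi209: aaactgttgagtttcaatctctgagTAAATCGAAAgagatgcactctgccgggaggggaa
Ifi207: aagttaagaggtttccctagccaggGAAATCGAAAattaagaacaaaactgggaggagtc
Ifi211: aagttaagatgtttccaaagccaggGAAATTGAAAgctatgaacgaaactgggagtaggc
Ifi203: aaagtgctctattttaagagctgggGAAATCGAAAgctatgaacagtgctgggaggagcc
Mndal: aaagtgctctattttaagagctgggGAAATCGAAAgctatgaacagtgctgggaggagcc
The positions are chr1:173599311-173599370 (Ifi213), chr1:173741816-173741875 (Ifi207), chr1:173913049-173913108 (Ifi211), chr1:173942493-173942552 (Ifi203) and chr1:173880189-173880248 (Mndal) on the minus strand, and chr1:173673582-173673641 (Ifi208) and chr1:173630755-173630814 (Ifi209) on the plus strand. The match began 73 bases before the start in Ifi213, 41 in Ifi207, 37 in Ifi211, 36 in Mndal and 35 in Ifi203, where 1 of its 2 annotated starts had it. Mndal also had another annotated start, whose window held a different match, GAAAGAGAAA, on the strand opposite to the gene, 54 bases before that start. Ifi203 and Mndal were identical over 60 of 60 bases, as were Ifi213 and Ifi208, whereas Ifi207 and Ifi211 shared 50. In Ifi209 the capitals mark the place that corresponds to the Ifi213 match, with which its window shared 41 of 60 bases; the substitution there was G1T, counted from the 5′ end of the 10 letters, so the ISRE letters were not present. Aim2 had no match in its window.

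Near-identical sequence limits how far reads can be assigned to 1 member. For each gene, the share of its annotated transcript stretches that also occur in another gene was counted at 50 bases and at 150 bases, which is the labelled read length. Ifi211 shared 72.8% of its 50-base and 46.4% of its 150-base stretches, with Ifi205 (44.7% at 50 bases), Ifi204 (30.1%) and Mndal (17.1%) as the main partners. Ifi209 shared 33.7% and 9.28%, nearly all with Ifi214, and Ifi204 shared 20.0% and 6.77%, mainly with Ifi211. Mndal shared 19.6% at 50 bases and 1.61% at 150, Ifi213 15.6% and 0.223%, Ifi203 12.4% and 0.827%, and Ifi207 7.29% and 0%. The main partner of Ifi203 at 50 bases was the pseudogene Ifi203-ps (8.85%). Aim2 stands apart from the others, with 0.742% at 50 bases and 0% at 150. Exons overlapped another gene only in Mndal (155 bases, 4.27% of its exonic length, with Ifi203 and Gm38050 on the same strand) and in Ifi203 (37 bases). Levels of Ifi211, and to a lesser extent of Ifi209 and Ifi204, are therefore uncertain in how they divide among paralogs.

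**Figure D1:**
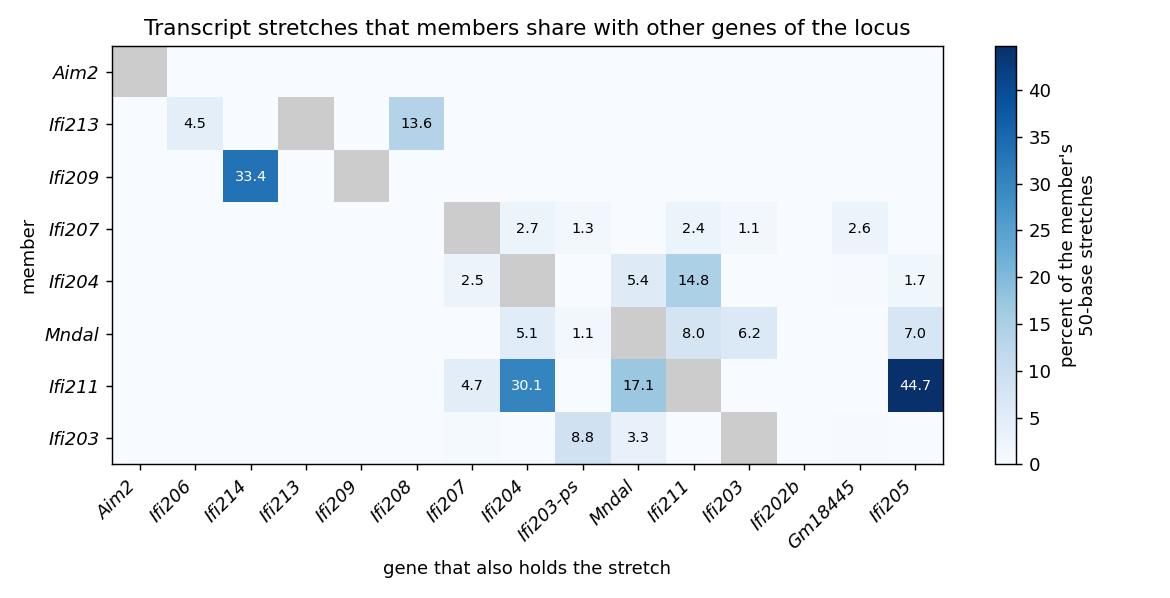
Percent of each member's annotated 50-base transcript stretches (rows) that also occur in selected other genes (columns), in chromosome order. A gene with itself is in grey and shares of at least 1% are printed. Gm38050, which holds 1.86% of the stretches of Mndal, is not drawn. Ifi211 shares most, with Ifi205, Ifi204 and Mndal, and Aim2, at 0.742% in all, shares least.

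In coculture 6 of the 8 members rose and 1 fell, and Aim2 was the member not called (edgeR quasi-likelihood test with Benjamini-Hochberg adjustment over all 12972 genes tested, adjusted p under 0.05). All 8 had passed the filter on low counts. By the same rule 36.9% of all genes tested were called, 21.7% higher and 15.2% lower in coculture. The members' log2 changes had a median of 0.42, beside 0.0029 over all genes tested, and the changes ran from -0.38 in Ifi213 to 2.14 in Ifi209. CPM ranges of the groups did not overlap in 5 members that were higher and 1 that was lower, beside 26.1% and 21% of all genes tested.

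Aim2 (chr1:173350879-173466040, plus strand), the inflammasome sensor, overlapped between the groups. Its level was 67.2, 67.6 and 67.5 CPM in coculture, against 64.9, 75.4 and 70.9 CPM alone. The cocultured values were nearly equal and lay inside the range of the cells grown alone. The log2 change was -0.06 (SE 0.0602, 95% interval -0.19 to 0.06) with an adjusted p of 0.445 in the edgeR test, an interval that corresponds to 0.878- to 1.04-fold.

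Ifi204 (chr1:173747293-173766943, minus strand) encodes p204, a DNA-binding protein that also binds the retinoblastoma protein and is often set beside human IFI16. It was 83.6, 82.1 and 81.8 CPM in coculture, against 36.2, 35.1 and 36.1 CPM alone. The groups were far apart and the libraries within each nearly equal. The level was 2.30-fold higher in coculture (95% interval 2.11 to 2.51, log2 1.20, SE 0.0597, edgeR adjusted p = 1.16e-14), and 9.34% of all genes tested were called and at least 2-fold higher. Counted together with Ifi211, with which it shares most, the pair was 2.39-fold higher (2.20 to 2.59, adjusted p = 2.05e-15 in the edgeR test).

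Ifi209 and Ifi211 had the largest fold changes of the 8 and low levels in cells grown alone. Ifi209 (chr1:173630917-173647928, plus strand) had 214, 226 and 249 counts in coculture (15.0, 14.4 and 14.6 CPM), against 37, 40 and 85 counts alone (2.54, 2.40 and 4.90 CPM). The cocultured libraries were close to each other, and among the cells grown alone library C stood at 2.04 times the lowest library. The level was 4.42-fold higher in coculture (3.38 to 5.77, log2 2.14, SE 0.186, edgeR adjusted p = 6.91e-10).
Ifi211 (chr1:173896345-173913046, minus strand) had 250, 316 and 319 counts in coculture (17.5, 20.2 and 18.7 CPM), against 65, 110 and 150 counts alone (4.47, 6.60 and 8.64 CPM). No library overlapped between the groups, and C was again the highest of the libraries grown alone, with A the lowest. The level was 2.83-fold higher in coculture (2.27 to 3.54, log2 1.50, SE 0.155, edgeR adjusted p = 1.58e-08). Pooled with the paralog sharing most of its sequence, Ifi209 plus Ifi214 was 4.65-fold higher and Ifi211 plus Ifi205 was 3.05-fold higher. The coefficient of variation of the CPM among libraries grown alone was 42.8% for Ifi209 and 31.8% for Ifi211, against 1.64% to 7.48% for the other 6 members.

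Ifi203 and Mndal, whose annotated spans overlap, rose to a smaller extent. Ifi203 (chr1:173920407-173942672, minus strand) was 151, 131 and 142 CPM in coculture, against 94.0, 94.5 and 99.2 CPM alone. Each cocultured library was above every library grown alone, and the level was 1.47-fold higher (1.36 to 1.59, log2 0.56, SE 0.0537, edgeR adjusted p = 4.57e-09).
Mndal (chr1:173849126-173942491, minus strand) is named for its likeness to the human myeloid cell nuclear differentiation antigen. It was 71.4, 74.5 and 72.8 CPM in coculture, against 56.4, 61.3 and 62.3 CPM alone. The groups did not overlap, and the level was 1.21-fold higher (1.12 to 1.32, log2 0.28, SE 0.0585, edgeR adjusted p = 4.19e-04). The windows before the starts of Ifi203 and Mndal were identical over the 60 bases shown above, and their changes were 1.47-fold and 1.21-fold.

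Ifi207 (chr1:173723427-173741747, minus strand) was the member at the highest level per gene length in both groups. It was 128, 122 and 117 CPM in coculture, against 117, 105 and 108 CPM alone. The lowest cocultured library overlapped the highest one grown alone. The level was 1.11-fold higher (1.03 to 1.20, log2 0.15, SE 0.0523, edgeR adjusted p = 0.0256). This call was lost without coculture library A (adjusted p = 0.142) or B (0.0560) and without library B (0.145) or C (0.0800) of the cells grown alone, all by edgeR, and in limma fits of log2 FPKM (0.0655 and 0.0648 with a pseudocount of 1 and of 0.1).

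Ifi213 (chr1:173566283-173599274, minus strand) was the member that fell. It had 123, 129 and 135 counts in coculture (8.61, 8.23 and 7.93 CPM), against 146, 189 and 188 counts alone (10.0, 11.3 and 10.8 CPM). The groups did not overlap, and the level was 0.768-fold (0.636 to 0.927, log2 -0.38, SE 0.132, edgeR adjusted p = 0.0252). The call was lost by DESeq2 (adjusted p = 0.0520) and, by edgeR, without coculture library B (0.0586) or C (0.0824) and without library B (0.0873) or C (0.0539) of the cells grown alone. Ifi208, whose 60-base promoter window is identical to that of Ifi213, moved the other way, at 9.27 ± 1.09 CPM in coculture and 1.19 ± 0.430 CPM alone (SD, n = 3 each, 7.71-fold higher, edgeR adjusted p = 7.42e-11). Ifi208 holds 13.6% of the 50-base stretches of Ifi213 and 0.209% of its 150-base stretches. Counted together, Ifi213 plus Ifi208 was 1.47-fold higher in coculture (log2 0.55, edgeR adjusted p = 3.64e-04). In coculture Ifi208 gave 433 counts to that sum and Ifi213 gave 387, so it does not give the change of Ifi213. The fall of Ifi213 holds for reads as the authors assigned them.

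**Figure D2:**
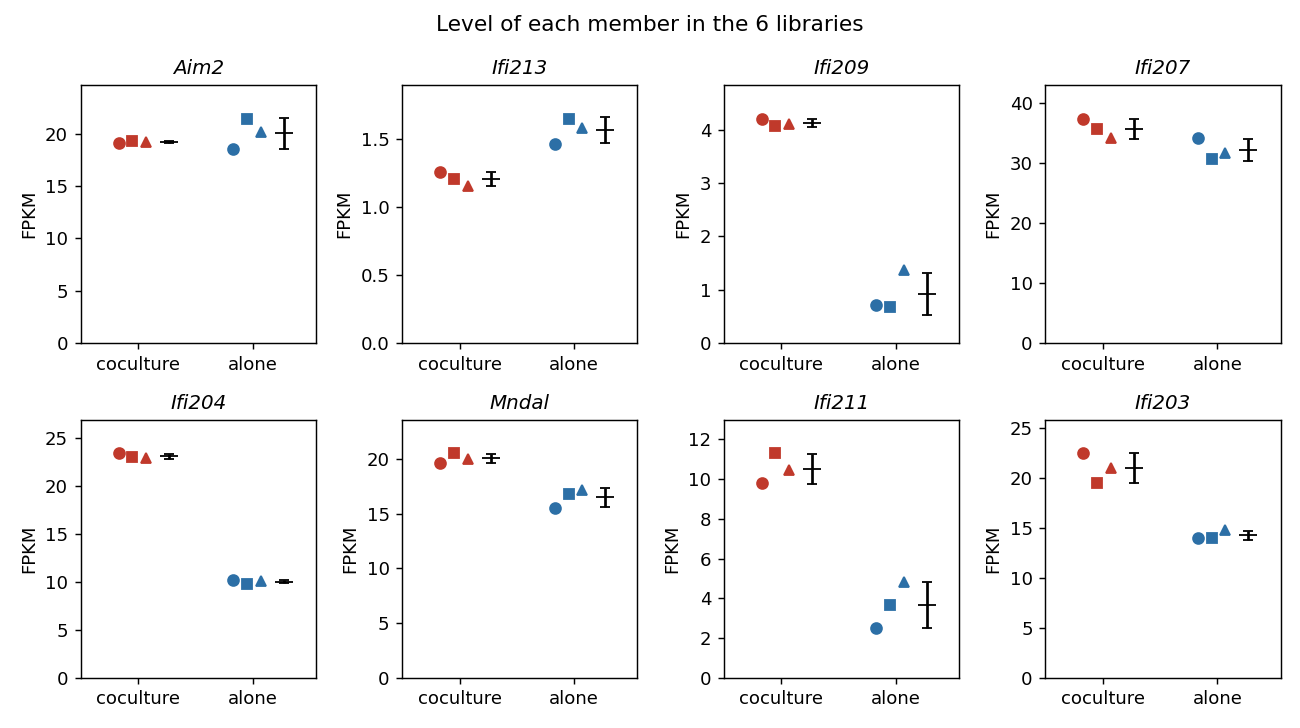
Level of each member as deposited FPKM (vertical axis, starting at 0) in the 3 cocultured libraries (red) and the 3 libraries grown alone (blue), with A as circle, B as square and C as triangle; black bars give the mean and SD. Ifi204, Ifi209 and Ifi211 stand far apart between the groups, Aim2 and Ifi207 overlap, and Ifi213 is lower in coculture.

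Summed over the 8 members, the family was higher in coculture. If each shared read was counted once, the sum is not affected by how reads are divided among the members. Shared reads that were dropped or counted more than once would change it, and their handling is not given. The sum can also be affected by how reads are divided between the members and paralogs outside, such as Ifi205 and Ifi214. The libraries had 7753, 8142 and 8880 member counts in coculture, against 5608, 6539 and 6963 alone. Scaled to library size this was 528 ± 12.9 CPM in coculture and 393 ± 7.81 CPM alone (SD, n = 3 each), with no overlap. The sum was 1.34-fold higher (1.27 to 1.42, log2 0.43, SE 0.0387, edgeR adjusted p = 1.45e-09). With every annotated gene between the outermost members added, which leaves out Ifi205, it was 1.37-fold higher (log2 0.46, edgeR adjusted p = 3.95e-10).

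Levels of different genes were compared by the deposited FPKM, which divides counts by gene length. The summed level of the 8 members was 135 ± 2.17 FPKM in coculture and 99.2 ± 2.31 FPKM alone. In coculture the order of mean FPKM was Ifi207 (35.7), Ifi204 (23.1), Ifi203 (21.01), Mndal (20.1), Aim2 (19.2), Ifi211 (10.5), Ifi209 (4.13) and Ifi213 (1.21), and the ranges of Ifi203 and Mndal overlapped. In cells grown alone it was Ifi207 (32.2), Aim2 (20.1), Mndal (16.5), Ifi203 (14.3), Ifi204 (10.0), Ifi211 (3.67), Ifi213 (1.57) and Ifi209 (0.923), and no neighbours in that order overlapped.
Ifi204 thus ranked next after Ifi207 in coculture but after Aim2, Mndal and Ifi203 in cells grown alone, where Aim2 ranked next after Ifi207. As a share of the members' summed FPKM, Ifi204 made up 17.1% ± 0.0809 in coculture and 10.1% ± 0.288 alone, and Ifi211 7.80% ± 0.641 in coculture and 3.69% ± 1.09 alone (SD, n = 3). Aim2 made up 14.2% ± 0.267 in coculture and 20.2% ± 1.35 alone, and Ifi207 26.4% ± 0.794 in coculture and 32.5% ± 2.40 alone. The share of Ifi209 was higher, those of Mndal and Ifi213 were lower, and that of Ifi203 overlapped between the groups. These shares are a description, with no test.

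**Figure D3:**
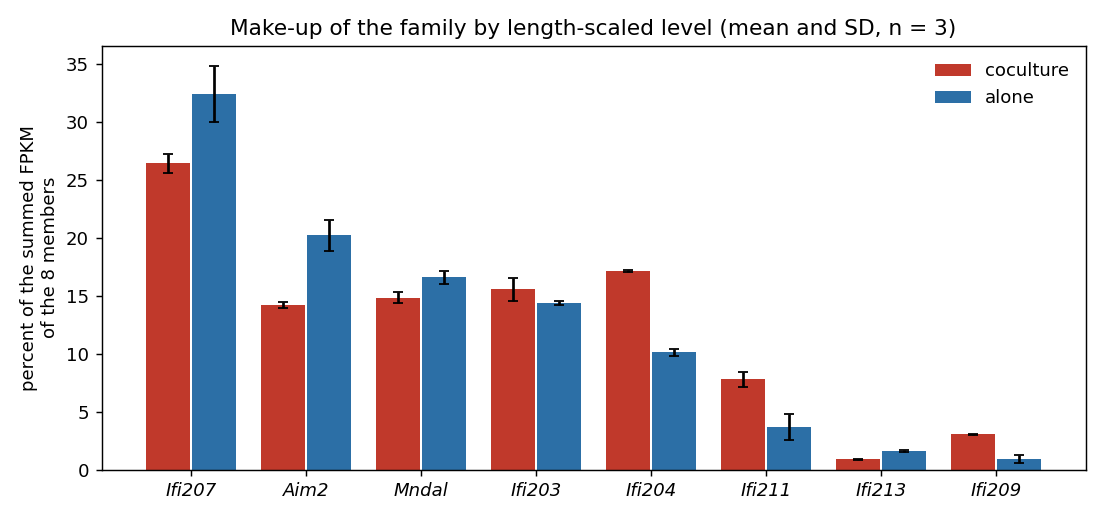
Percent of the summed FPKM of the 8 members taken by each member (vertical axis), as mean and SD of 3 libraries, in coculture (red) and alone (blue), in order of the level alone. Ifi207 takes the largest share in both groups, and Ifi204 takes 17.1% in coculture and 10.1% alone.

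The members span 592 kb of chromosome 1, and 10 other annotated genes lie between the outermost of them. Of these 10 genes, 3 could be tested and all 3 were higher in coculture, namely Ifi208 (above), Ifi214 and the pseudogene Ifi203-ps. Ifi214 had 68 counts over the cocultured libraries and 7 over those grown alone, 9.63-fold higher (4.52 to 20.5, edgeR adjusted p = 1.79e-05). It holds 33.4% of the 50-base stretches of Ifi209, so how reads divide between them is uncertain. Ifi203-ps was 9.08 ± 1.30 CPM in coculture and 5.01 ± 0.631 CPM alone (SD, n = 3 each), 1.82-fold higher (edgeR adjusted p = 1.37e-04). This pseudogene holds 8.85% of the 50-base stretches of Ifi203, which stood at 141 CPM in coculture and 95.9 CPM alone. The part of its reads that came from Ifi203 was not tested. Ifi206 had 12 counts in coculture and 5 alone, too few to test.

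Outside the members but within 500 kb, 24 of 28 protein-coding genes had no count in any library, among them 18 of 19 olfactory receptor genes. The 2 that could be tested were also PYHIN genes and were both higher. Ifi202b encodes p202, which binds DNA without a pyrin domain and inhibits AIM2 in the mouse. It had 1651, 1765 and 1832 counts in coculture, against 748, 963 and 1170 alone, with no overlap between the groups. Its level was 112 ± 4.02 CPM in coculture and 58.9 ± 8.05 CPM alone (SD, n = 3 each), 1.90-fold higher (1.72 to 2.09, edgeR adjusted p = 3.47e-11), and it shared 0% of its 50-base stretches with other genes. The FPKM of Ifi202b was 3.55, 3.44 and 3.29 times that of Aim2 in coculture, and 1.63, 1.58 and 1.96 times alone. The ratio was higher in every cocultured library, with Aim2 itself not called. Ifi205 had 90 counts in coculture and 7 alone, 12.5-fold higher (5.75 to 27.3, edgeR adjusted p = 5.70e-06). It holds 44.7% of the 50-base stretches of Ifi211, so how reads divide between them is uncertain.

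**Figure D4:**
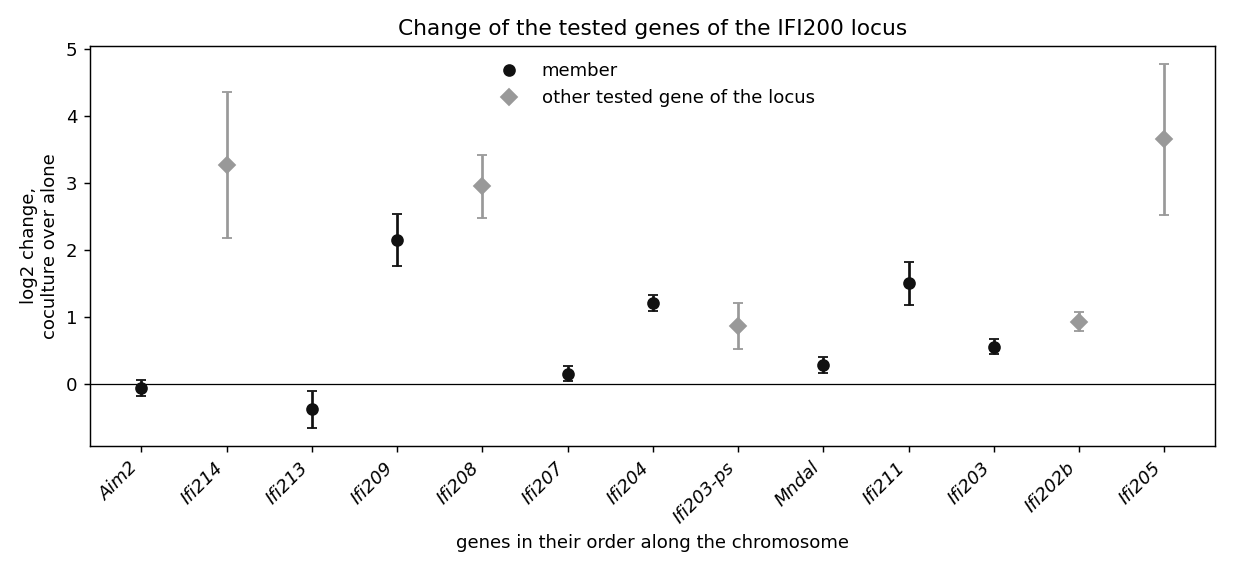
Log2 change of coculture over alone (vertical axis, 95% interval of the edgeR fit) for the 8 members (black circles) and the 5 other tested genes of the locus (grey diamonds), in order along the chromosome. Of the 13 genes, Aim2 spans 0, Ifi213 lies below it and the other 11 lie above it.

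Genes that act with the members were read from the same fit. Over all genes tested, 21.7% were higher, 15.2% were lower and the median log2 change was 0.0029. In the AIM2 inflammasome and pyroptosis list, 15 of 17 genes could be tested, 6 were higher and 1 was lower, with a median log2 change of 0.03. Pycard, which encodes the ASC adaptor that RAW264.7 cells are known to lack, had 6 counts in coculture and 24 alone, too few to test. Casp1, the inflammasome protease, was 49.3 ± 3.49 CPM in coculture and 43.2 ± 1.19 CPM alone (1.14-fold higher, edgeR adjusted p = 0.0306), and Gsdmd, the pore-forming protein it cleaves, was 84.2 CPM in coculture and 86.5 CPM alone (adjusted p = 0.605). Of the cytokines that caspase-1 processes, Il1b was 3.03 ± 0.424 CPM in coculture and 0.228 ± 0.0476 CPM alone (12.9-fold higher, adjusted p = 3.43e-08), and Il18 was 1.71-fold higher (adjusted p = 7.35e-05). Also past the threshold were Nlrc4, another inflammasome sensor, at 1.49-fold, Txnip at 1.35-fold and Ninj1, which ruptures the membrane of dying cells, at 0.847-fold.

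In the list for DNA sensing through cGAS and STING, all 15 genes could be tested. Of these, 4 were higher and 7 were lower (median -0.14), beside 21.7% and 15.2% of all genes tested. The sensor Mb21d1 (Cgas) was 79.7 CPM in coculture and 79.8 CPM alone (adjusted p = 0.971), so neither it nor Aim2 was called. Tmem173 (Sting1), the adaptor downstream of cGAS, was 61.3 ± 1.41 CPM in coculture and 44.1 ± 0.669 CPM alone (1.39-fold higher, edgeR adjusted p = 6.60e-07). Zbp1, a sensor of Z-form nucleic acid, was 4.94-fold higher, the interferon regulatory factor Irf7 2.05-fold and Lrrc8c 1.34-fold. The 7 lower genes changed less, from 0.800-fold in Prkdc to 0.909-fold in Slc19a1, both named after their values were seen. Of 11 genes for cytosolic DNA removal, 9 could be tested, 3 were higher and 5 were lower (median -0.17), beside the same shares. Dnase2a, a lysosomal nuclease, was 0.734-fold, Rnaseh2b 0.846-fold and Sidt2 1.24-fold. Trex1 had no count in any library, and all 1147 of its exonic bases lie in exons of Atrip on the same strand, so reads of the pair cannot be told apart.

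The list of interferon receptors with their kinases, transcription factors and feedback inhibitors held 18 genes, all of which could be tested. Of these, 9 were higher and 2 were lower (median 0.29), beside 21.7% and 15.2% of all genes tested. Stat2, which acts downstream of the type I interferon receptor, was 134 ± 1.74 CPM in coculture and 51.0 ± 1.84 CPM alone (2.62-fold higher, edgeR adjusted p = 3.55e-17). Irf9, its DNA-binding partner, was 73.7 CPM in coculture and 72.7 CPM alone (edgeR adjusted p = 0.826). The receptor genes Ifnar1 (adjusted p = 0.123) and Ifngr1 (0.861) were not called. The 2 lower genes, named after their values were seen, were Ifnar2, the other chain of the type I receptor, at 45.5 ± 2.27 CPM in coculture and 56.4 ± 0.880 CPM alone (SD, n = 3 each, 0.806-fold, edgeR adjusted p = 3.53e-04), and the kinase Tyk2 (0.904-fold, adjusted p = 0.0360). The feedback inhibitors Socs1 and Socs3 were 2.36-fold and 1.74-fold higher, and Ifnlr1 had 72 counts over the cocultured libraries and 0 alone. None of the 21 interferon genes on the list could be tested. They had 0 counts in coculture, where 3 counts would be 0.0639 CPM over the group, and 5 counts alone, 3 of them in Ifnb1. That floor covers counting error only. No read was assigned to these genes in coculture at 48 h. Sequence shared among them was not examined and the handling of multiply aligned reads is not given, so absence of interferon RNA was not shown.

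The genes whose levels followed the members' median most closely over the 6 libraries were looked for among 9921 non-members with a mean of at least 5 CPM, as the smallest Euclidean distance between centred log2 CPM values. They were Plk2 (distance 0.0252), a polo-like kinase, Slc25a24 (0.0308), a mitochondrial carrier, Tmem8 (0.0574), Tor1aip2 (0.0593) and Pla2g4a (0.0696), the cytosolic phospholipase that releases arachidonic acid. Plk2 was 72.4 ± 2.04 CPM in coculture and 53.5 ± 1.67 CPM alone (SD, n = 3 each), a 1.35-fold difference. The median does not stand for each member, as their log2 changes ran from -0.38 in Ifi213 to 2.14 in Ifi209. This likeness is a description, with no test.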

How the data were processed

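The authors deposited raw counts per gene and FPKM values for 6 poly-A-selected libraries. Per the submitters' processing notes, the mm10 build, edgeR (3.22.5), DESeq2 (1.20.0), featureCounts (1.5.0-p3) and HISAT2 (2.0.5) were used, in roles not stated; the strand setting and the handling of multiply aligned reads are not given in the sources used here. The deposited FPKM values were checked to be the counts scaled by gene length and total, up to a library factor of 0.996 to 1.004. RAW264.7 derives from a BALB/c mouse, and how strain differences from the reference bear on this locus was not tested. Counts were fitted with edgeR 4.0.16 (R 4.3.3; TMM scaling, filterByExpr, quasi-likelihood F test, adjusted p under 0.05), a step tested on simulated data; limma 3.58.1 and DESeq2 1.42.0 were alternatives. CPM values use TMM-scaled totals. Every pair of replicates differed by more than sampling noise (chi-square per degree of freedom 2.98 to 4.57). Intervals are 95%. Genes named outside the members were the other genes of the locus with at least 10 counts, a set of pathway genes, up to 3 further genes with the largest change per pathway list, and the 5 most alike. Members and lists were chosen with earlier results of these data known. Pooling a member with a paralog was added after seeing the data, as were the names of some lower genes of the lists. Some genes of the lists are not reported here by name.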

Additional observations from a re-analysis of the deposited data

How the results depend on the processing

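Over 16 alternatives (other scalings, filters, tests and FPKM fits, a replicate block and leaving out each library), 3665 to 5177 genes were called, against 4793, and 5 to 7 members, against 7. Leaving out 1 library each gave 4179 to 4559 genes and 5 to 7 members. Ifi203, Ifi204, Ifi209, Ifi211 and Mndal kept their call and direction in all 16, and Aim2 was not called in any (log2 -0.11 to -0.02, adjusted p 0.154 to 0.894 in edgeR, DESeq2 or limma). The log2 change of Ifi209 ran from 1.44, with limma on log2(FPKM + 1), to 2.57, without library C of the cells grown alone. Ifi207 lost its call under 6 alternatives and Ifi213 under 5, given with their values above, and neither changed direction in the 16. The calls of the summed members and the summed locus held in the 14 alternatives run for them, which left out the FPKM fits. The sum of Ifi213 and Ifi208, an alternative added after seeing the data, had a log2 change of 0.55. That is the change of the sum and not of Ifi213. Libraries of the same letter showed little shared deviation (correlation of same-letter deviations 0.0014 to 0.035 for 3 pairs). That cannot show whether they were made as pairs, which the labels do not say. With the replicate block 4766 genes and 7 members were called. Depth limits Ifi205, Ifi206 and Ifi214, with at most 7 counts over the libraries grown alone. Shared sequence limits Ifi211 and its partner Ifi205, Ifi209 and its partner Ifi214, and Ifi203-ps, which shares with Ifi203.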

Other observations

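Ifi204 protein binds or regulates several growth and differentiation factors in the mouse, and 16 such partners of p204 and p202 were read from the fit. Of these, 15 could be tested, 5 were higher in coculture and 3 were lower, with a median log2 change of -0.05, beside 36.9% of all genes called. Id1, an inhibitor of differentiation factors, was 49.1 ± 1.69 CPM in coculture and 8.42 ± 1.51 CPM alone (SD, n = 3 each), 5.85-fold higher (edgeR adjusted p = 1.80e-16). Its relative Id3 was 20.7 ± 1.10 CPM in coculture and 29.2 ± 1.14 CPM alone, 0.710-fold (adjusted p = 4.95e-05). Runx2, a transcription factor best known from bone, was 9.21 ± 1.59 CPM in coculture and 3.83 ± 0.0458 CPM alone, 2.40-fold higher (adjusted p = 1.35e-06). Gata4 had no count in any library.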
